A study of Sus scrofa with 7 samples.

Results

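The genes described here encode the glutamate receptors of the piglet hypothalamus, the transporters that load glutamate into synaptic vesicles, and the scaffold proteins that hold the receptors in place at the synapse. They were matched by gene symbol and no measured value entered the match, although the families were chosen with earlier results of these data known. The symbols were GRIA for AMPA receptors, GRIN for NMDA receptors, GRIK for kainate receptors, GRID for delta receptors and GRM for metabotropic receptors. SLC17A6 to SLC17A8 were taken for the vesicular transporters, and DLG, DLGAP, SHANK and HOMER for scaffolds. This gave 34 of the 16991 features in the authors' deposited table, with no GRID row among them, and 30 of the 34 had been tested by the authors. The antibiotic group was 3 libraries from piglets that received, through a T-cannula (a fixed tube) into the distal ileum, 10 mL of saline with an antibiotic mixture. Its daily doses per kg were 30 mg of metronidazole, 4 mg of gentamicin and 150 mg of ampicillin. The control group was 4 libraries from piglets given the same volume of saline (0.9% NaCl) alone. All were Duroc x Landrace x Large White piglets with a T-cannula, housed singly and sampled at postnatal day 45, and 12 had been randomised. The labels do not say how long the infusion lasted.

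Glutamate is the main excitatory transmitter of the brain. AMPA, NMDA and kainate receptors are ion channels that open when glutamate binds, metabotropic receptors signal through G proteins, and vesicular transporters enable a neuron to release glutamate. Behind the receptors, DLG proteins bind receptor tails, DLGAP proteins link DLG to SHANK, and HOMER links SHANK to metabotropic receptors. In the hypothalamus most glutamate neurons use the vesicular transporter encoded by SLC17A6.

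Each gene had 1 FPKM value for each group in the authors' deposited table, where FPKM counts fragments per unit of transcript length and of sequencing output. No value of a single library was used, so the spread between libraries and their depth are unknown, and replicate error can enter only through the authors' p and q. In what is reported here a gene rose or fell only where the authors' q was under 0.05, and every FPKM, log2 fold (antibiotic over control), p and q is from that table. The smallest q in it, 0.000336, was shared by 2081 tested features, so genes with this q cannot be ranked by it. It is not stated in the sources used here how libraries entered that test, and the labels do not say that each library came from a separate animal. In this bulk tissue, fewer cells of a type and less RNA per cell cannot be told apart.

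In the antibiotic group the metabotropic receptor gene GRM4, the scaffold gene SHANK1 and the NMDA receptor gene GRIN2D were more than 2-fold higher, the AMPA receptor genes GRIA2 and GRIA4 fell, and among vesicular transporters SLC17A6 fell while SLC17A7 rose. Of the 30 tested members 9 rose and 6 fell in the authors' deposited table, and the other 15 did not pass. Across all 13352 tested features 41.1% were called, 19.0% upwards and 22.2% downwards, against 50% of the members, 30% upwards and 20% downwards. The authors' own significant column, which also asks for a 2-fold change, held 15.8% of tested features, 7.37% upwards and 8.44% downwards, and 3 of the 30 members, all upwards (GRIN2D, GRM4 and SHANK1). In the downward direction 7 members had an unadjusted p under 0.05. The number called is read against that background and is not in itself a result about these genes. The same holds for the counts given for each class below. The median log2 was 0.28 over the 30 tested members and -0.03 over all tested features. The 21 members with at least 5 FPKM in either group had a median log2 of -0.091, beside -0.076 for all tested features at that level.

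**Figure D1:**
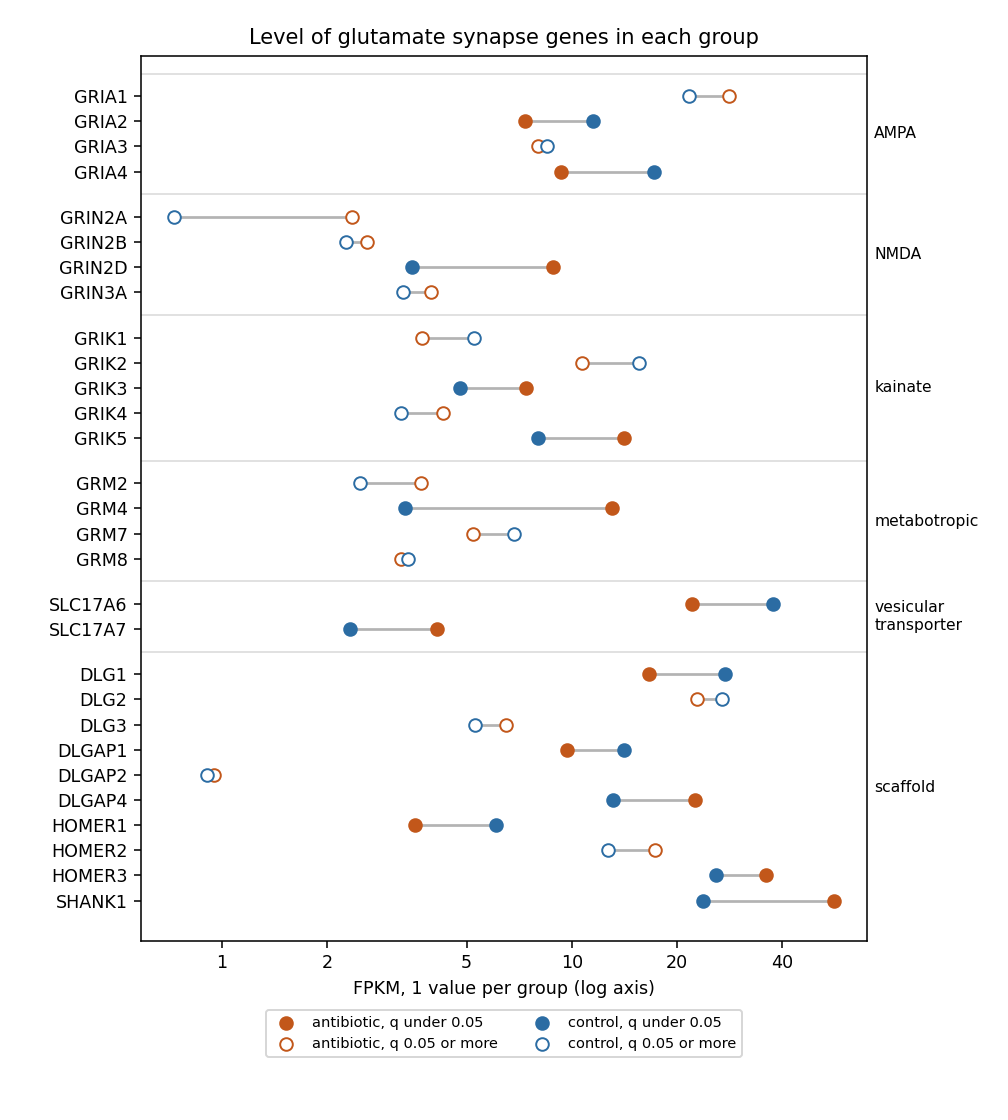
FPKM of 29 of the 30 tested genes in the antibiotic and the control group of the authors' deposited table, 1 value per group on a log axis, grouped by class. Filled points mark genes with q under 0.05, such as GRM4 at 13.0 in antibiotic and 3.33 in control, and open points the others.

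Both tested vesicular transporter genes changed, in opposite directions. SLC17A6, which encodes the transporter VGLUT2, stood at 22.1 FPKM in antibiotic and 37.5 in control, 1.70-fold lower (q = 0.000336 in the authors' deposited table). SLC17A7, which encodes VGLUT1, the transporter of most cortical glutamate neurons, stood at 4.12 FPKM in antibiotic and 2.31 in control, 1.78-fold higher (q = 0.00797 in the same table). SLC17A6 was thus still the most abundant of the 3, but its ratio to SLC17A7 was 5.36 in antibiotic and 16.2 in control. Of the summed FPKM of the class, SLC17A6 held 83.1% in antibiotic and 93.5% in control, and SLC17A7 15.5% and 5.76%. SLC17A8, which encodes VGLUT3, was not tested by the authors and was listed at 0.378 FPKM in antibiotic and 0.281 in control. SLC17A6 (ENSSSCG00000013343) lies at chromosome 2, 40309845 to 40349507, and SLC17A7 (ENSSSCG00000003170) at chromosome 6, 50240077 to 50251619, in the table's coordinates. The pig build susScr3 appears in the submitters' processing notes, with no statement that the table's coordinates are of that build.

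AMPA receptors carry most of the fast excitatory current, and all 4 of their subunit genes were tested. GRIA4 stood at 9.32 FPKM in antibiotic and 17.2 in control, 1.84-fold lower (q = 0.000336 in the authors' deposited table). GRIA2, whose edited subunit keeps calcium out of the channel, stood at 7.33 FPKM in antibiotic and 11.5 in control, 1.57-fold lower (q = 0.0139 in that table). The other two did not pass. GRIA1 stood at 28.2 FPKM in antibiotic and 21.6 in control, with a p of 0.0403 and a q of 0.0875 in the authors' table, and GRIA3 at 7.98 and 8.50 (q = 0.736). GRIA1 was the most abundant subunit gene in both groups and held 53.4% of the summed AMPA receptor FPKM in antibiotic and 36.8% in control. GRIA2 held 13.9% in antibiotic and 19.6% in control, and GRIA4 17.6% and 29.2%. The ratio of GRIA1 to GRIA2 was 3.85 in antibiotic and 1.88 in control. Multiplying a group by 1 factor leaves these shares and ratios as they are, but with 1 value per group they could not be tested. GRIA2 (ENSSSCG00000024685) lies at chromosome 8, 48116707 to 48280577, and GRIA4 (ENSSSCG00000030565) at chromosome 9, 39464925 to 39841488, in the deposited table.

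NMDA receptors are calcium-permeable channels that need glutamate and a co-agonist, and all contain the subunit encoded by GRIN1, which is not analysed here since no row matched it. Of the 6 NMDA receptor genes with a row 4 were tested, 1 rose and 3 did not pass. That is 25% called, beside 41.1% of all tested features. GRIN2D, whose subunit gives slowly closing channels, stood at 8.82 FPKM in antibiotic and 3.50 in control, 2.52-fold higher (q = 0.0205 in the authors' deposited table). GRIN2A stood at 2.36 FPKM in antibiotic and 0.729 in control, 3.23-fold apart, but did not pass (q = 0.185 in the authors' table). GRIN2B, which encodes the subunit that prevails early in forebrain development, stood at 2.60 FPKM in antibiotic and 2.25 in control (q = 0.455 in that table). GRIN3A, a glycine-binding subunit gene, stood at 3.97 and 3.29 (q = 0.405). GRIN2C and GRIN3B were not tested and were listed at 0.689 and 0.812 FPKM in antibiotic, against 0.0255 and 0.404 in control. GRIN2D held 45.8% of the summed NMDA receptor FPKM in antibiotic and 34.3% in control, and its ratio to GRIN2B was 3.39 in antibiotic and 1.55 in control. The row of GRIN2D (ENSSSCG00000003133; chromosome 6, 49570001 to 49623795) has the same locus as that of KDELR1, which stood at 24.8 FPKM in antibiotic and 24.5 in control (q = 0.949 in the authors' table). The sources used here do not say how reads of such a shared locus were divided.

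Kainate receptors modulate transmitter release and excitability. Of their 5 subunit genes, GRIK3 and GRIK5 rose and 3 did not pass, so 40% were called, beside 41.1% of all tested features. GRIK5, which encodes a high-affinity subunit that works only together with others, stood at 14.1 FPKM in antibiotic and 8.02 in control, 1.75-fold higher (q = 0.00312 in the authors' deposited table). GRIK3, a low-affinity subunit gene, stood at 7.39 FPKM in antibiotic and 4.80 in control, 1.54-fold higher (q = 0.00879). GRIK2, another low-affinity subunit gene, stood at 10.7 FPKM in antibiotic and 15.5 in control, with a p of 0.0424 and a q of 0.0909 in that table. GRIK4, a further high-affinity subunit gene, stood at 4.29 FPKM in antibiotic and 3.25 in control, with a p of 0.0497 and a q of 0.103. For GRIK1, the remaining low-affinity subunit gene, the authors' table gave 3.72 FPKM in antibiotic and 5.26 in control (q = 0.133). Of the 5 genes matched by symbol the most abundant in antibiotic was GRIK5, with 35.0% of the summed FPKM against 21.8% in control. In control it was GRIK2, with 42.1% against 26.7% in antibiotic. A second GRIK5 row, matched by gene ID and given below, is not in that sum. With it the row by symbol held 26.4% in antibiotic and 19.0% in control, the second row 24.7% and 12.6%, and GRIK2 20.1% and 36.8%. GRIK4 shares its locus with the row ENSSSCG00000028921, which stood at 25.7 FPKM in antibiotic and 46.8 in control (q = 0.504 in the authors' table).

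**Figure D2:**
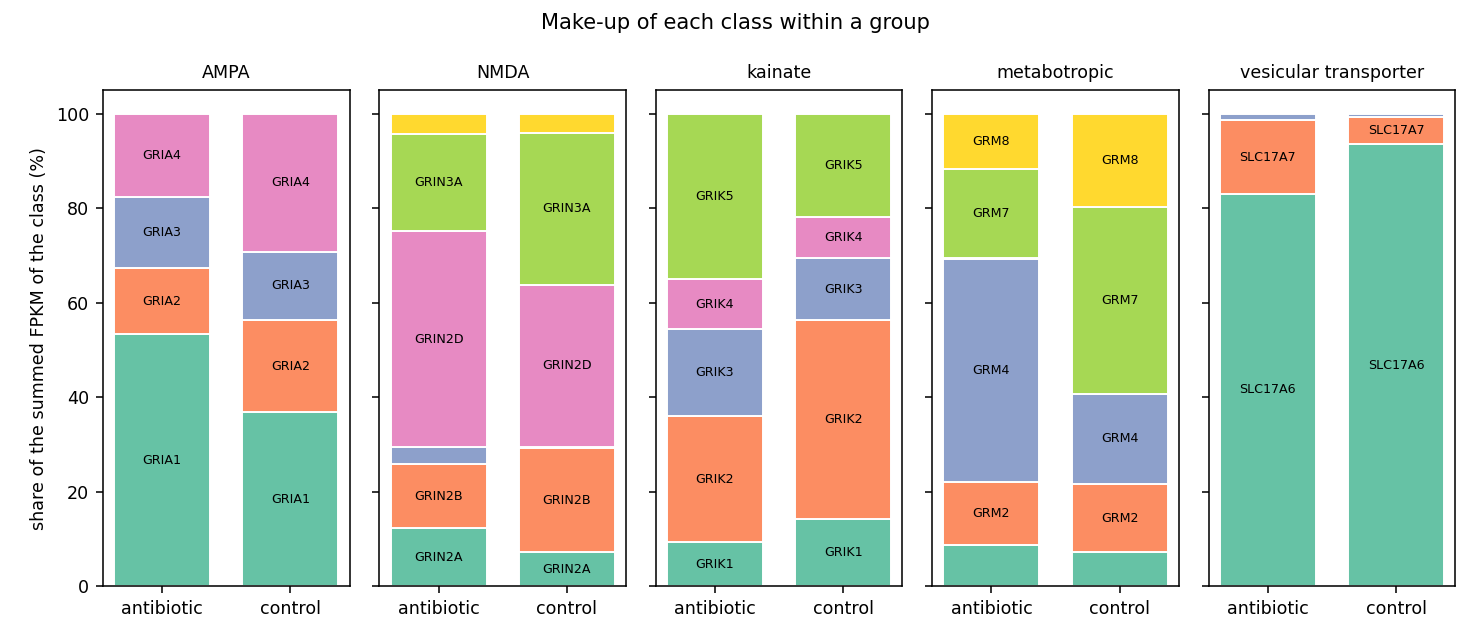
Share of each gene matched by symbol in the summed FPKM of such genes of its class (vertical axis, percent). Antibiotic is left and control right in each panel, from 1 value per group. Rows matched by gene ID, among them GRM3 and GRM5, are not in the bars. Some segments, among them genes under 5% of the bar, are not labelled; GRIA1 takes 53.4% of the AMPA bar in antibiotic and 36.8% in control, and GRM4 47.3% and 19.2% of the metabotropic bar.

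Metabotropic receptors fall into a group coupled to calcium release, to which GRM5 belongs, and groups that inhibit adenylyl cyclase, to which GRM2, GRM3, GRM4, GRM6, GRM7 and GRM8 belong. Of 5 tested genes matched by symbol 2 rose and 3 did not pass, which is 40% called, beside 41.1% of all tested features. GRM4, an autoreceptor that reduces transmitter release, stood at 13.0 FPKM in antibiotic and 3.33 in control, 3.92-fold higher (q = 0.000336 in the authors' deposited table). This was the highest log2 fold among the 30 tested members, 1.97. GRM4 (ENSSSCG00000001523) lies at chromosome 7, 34838406 to 34928071, in that table. GRM2 stood at 3.70 FPKM in antibiotic and 2.48 in control (q = 0.346). The presynaptic receptor genes GRM7 and GRM8 stood at 5.20 and 3.24 FPKM in antibiotic, against 6.85 and 3.40 in control (q = 0.190 and 0.829). Among the genes matched by symbol GRM4 held 47.3% of the summed FPKM in antibiotic and 19.2% in control, and GRM7 18.9% and 39.6%. GRM3 and GRM5, matched by gene ID and given below, are not in that sum. Once they were added, GRM4 held 13.4% in antibiotic and 4.74% in control, and GRM7 5.36% and 9.76%. GRM5 then held 42.3% in antibiotic and 31.0% in control, and GRM3 29.3% and 44.4%. GRM6, known from retinal bipolar cells, was not tested and was listed at 0.0205 FPKM in antibiotic and 0 in control.

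The 10 scaffold genes split, with 3 that rose, 3 that fell and 4 that did not pass. That is 30% upwards and 30% downwards, beside 19.0% and 22.2% of all tested features. SHANK1, which encodes a scaffold deep in the postsynaptic density, stood at 56.1 FPKM in antibiotic and 23.8 in control, 2.36-fold higher (q = 0.000336 in the authors' deposited table). DLGAP4 stood at 22.5 FPKM in antibiotic and 13.1 in control, 1.72-fold higher (q = 0.000336), and HOMER3 at 35.9 and 25.8, 1.39-fold higher (q = 0.0356). DLG1, which encodes SAP97, a carrier of AMPA receptors, stood at 16.6 FPKM in antibiotic and 27.5 in control, 1.66-fold lower (q = 0.000336 in that table). HOMER1, whose short form is induced by activity, stood at 3.56 FPKM in antibiotic and 6.07 in control, 1.70-fold lower (q = 0.00114). DLGAP1 stood at 9.71 FPKM in antibiotic and 14.1 in control, 1.45-fold lower (q = 0.0215 in the authors' table).

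Within the HOMER and DLGAP families the called genes thus changed in opposite directions, a difference that was not tested in itself. The ratio of HOMER3 to HOMER1 was 10.1 in antibiotic and 4.25 in control, and that of DLGAP4 to DLGAP1 was 2.32 in antibiotic and 0.932 in control. HOMER2 stood at 17.3 FPKM in antibiotic and 12.7 in control (q = 0.264 in the authors' table). DLG2, which encodes PSD-93, stood at 22.8 and 26.8 FPKM (q = 0.325), and DLG3, which encodes SAP102, at 6.47 and 5.28 (q = 0.215). DLGAP2 was the least abundant tested scaffold gene, with 0.944 FPKM in antibiotic and 0.902 in control (q = 0.868). SHANK2, SHANK3 and DLGAP3 matched no row, and they are not analysed here. SHANK1 (ENSSSCG00000003215) lies at chromosome 6, 51349082 to 51396083, and DLG1 (ENSSSCG00000011833) at chromosome 13, 142336266 to 142629535, in the deposited table.

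Levels can be ordered within a group, since FPKM is scaled to transcript length, although the length of each gene model bears on its value. In antibiotic the highest of the 34 genes were SHANK1, HOMER3, GRIA1, DLG2, DLGAP4 and SLC17A6. In control they were SLC17A6, DLG1, DLG2, HOMER3, SHANK1 and GRIA1. SLC17A6 therefore ranked 6 in antibiotic and 1 in control, and GRM4 ranked 10 in antibiotic and 22 in control. Outside the 34, DLG4, matched by gene ID, was higher than any of them, at 72.4 FPKM in antibiotic and 45.7 in control. Neighbours in these orders, such as DLG2, DLGAP4 and SLC17A6 in antibiotic at 22.8, 22.5 and 22.1 FPKM, cannot be separated without a spread between libraries.

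A further 6 rows carry no such symbol in the authors' deposited table but belong to the same families by the symbol paired with their gene ID in the gene name table. With them 36 rows were tested, of which 12 rose and 7 fell. That is 52.8% called, 33.3% upwards and 19.4% downwards, beside 41.1%, 19.0% and 22.2% of all tested features. The 12 include both GRIK5 rows, and whether these belong to the same gene was not tested. GRM5, the main calcium-coupled metabotropic receptor of the forebrain, stood at 41.0 FPKM in antibiotic and 21.7 in control, 1.89-fold higher (q = 0.000336 in the authors' table). DLG4, which encodes PSD-95, the core scaffold of excitatory synapses, stood at 72.4 FPKM in antibiotic and 45.7 in control, 1.58-fold higher (q = 0.000891). The delta receptor gene GRID1 stood at 8.63 FPKM in antibiotic and 8.31 in control (q = 0.860 in that table) and GRM3, common in astrocytes, at 28.4 and 31.1 (q = 0.670), the last at a locus shared with KIAA1324L. Another of these rows is a second one for GRIK5, 75.6 kb from the row above on chromosome 6, at 13.2 FPKM in antibiotic and 5.32 in control, 2.47-fold higher (q = 0.000336 in the authors' table). The gene name table gives GRIK5 to this second row's ID and has no entry for that of the first.

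**Figure D3:**
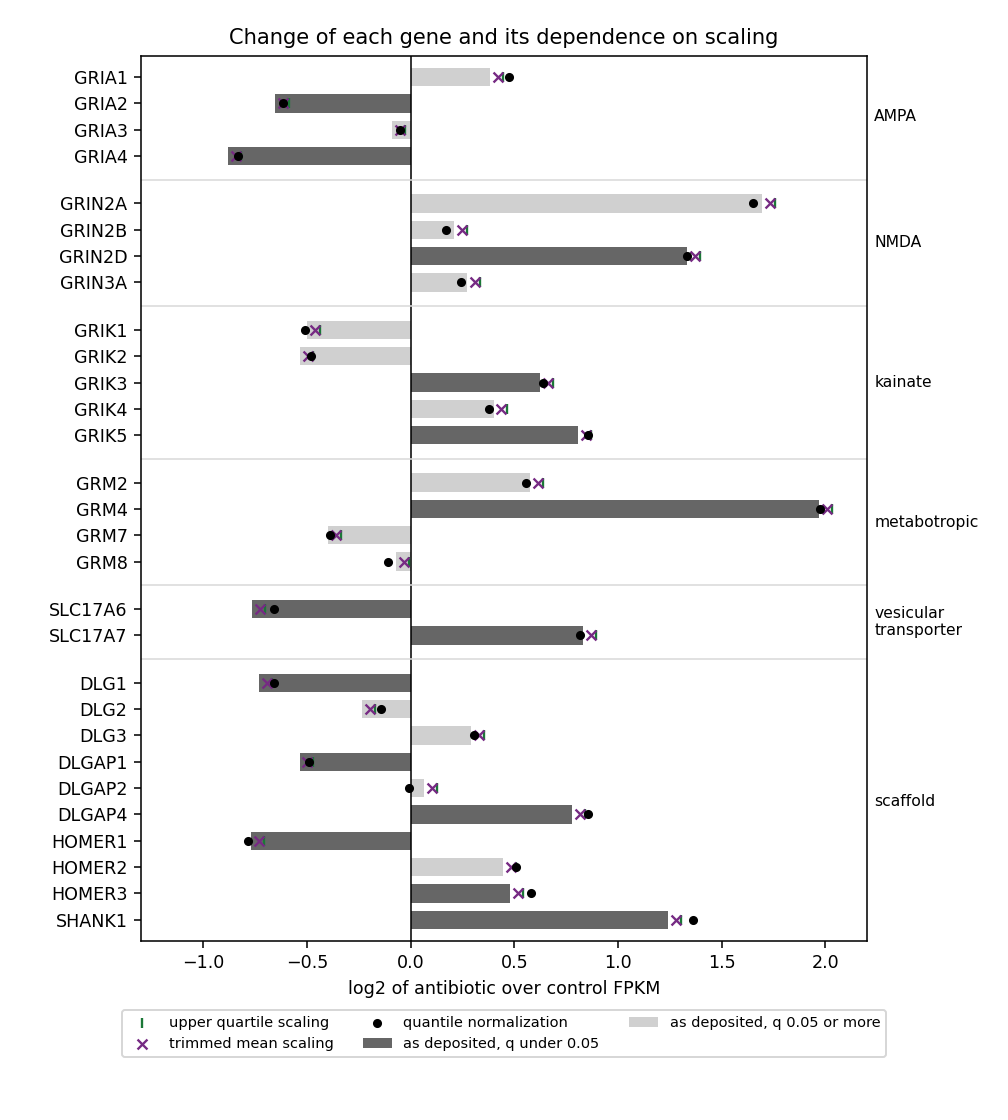
Log2 of antibiotic over control FPKM (horizontal axis) of 29 of the 30 tested genes, with dark bars for q under 0.05 and light bars for the others, and markers for the value after 3 other scalings of the groups. Every dark bar keeps its direction under the 3 scalings, and of the light bars DLGAP2 changes sign under quantile normalization.

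Partner genes of the glutamate synapse were described from 3 lists. Their counts are read against all tested features, of which 41.1% were called, 19.0% upwards and 22.2% downwards. Of 20 tested genes for auxiliary and trafficking proteins of AMPA and kainate receptors 9 rose and 2 fell, and the median log2 of the 20 was 0.66. Those named by the rule were CACNG8, CACNG7 and PORCN. CACNG8, which encodes an AMPA receptor auxiliary subunit, stood at 9.96 FPKM in antibiotic and 2.85 in control, 3.50-fold higher (q = 0.000336 in the authors' deposited table). CACNG7, of the same family, stood at 62.1 FPKM in antibiotic and 25.2 in control, 2.47-fold higher, and PORCN, an acyltransferase also found with AMPA receptors, at 8.52 and 4.04, 2.11-fold higher (both q = 0.000336). The 2 that fell were NETO1 and NETO2, the auxiliary subunits of kainate receptors, named after their values were seen. NETO1 stood at 3.26 FPKM in antibiotic and 6.53 in control (q = 0.0142), and NETO2 at 5.78 and 8.84 (q = 0.00764), in that table.

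Of 30 tested genes for postsynaptic partners 11 rose and 6 fell, and the median log2 of the 30 was 0.32. CNTNAP1, a paranodal axon protein placed in this list, stood at 34.2 FPKM in antibiotic and 14.8 in control, 2.32-fold higher, while LIN7C, an adaptor of scaffolds, stood at 8.99 and 19.9, 2.21-fold lower (both q = 0.000336 in the authors' deposited table). Of 17 tested genes for glutamate uptake and recycling 7 rose, 1 (DDO, which degrades D-aspartate) fell, and the median log2 of the 17 was 0.34. DAO, which degrades D-serine, stood at 25.7 FPKM in antibiotic and 9.26 in control, 2.78-fold higher, and the glutamine carriers SLC38A5 at 15.9 and 7.80, 2.03-fold higher, and SLC38A3 at 15.0 and 8.73, 1.72-fold higher (each q = 0.000336 in that table).

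**Figure D4:**
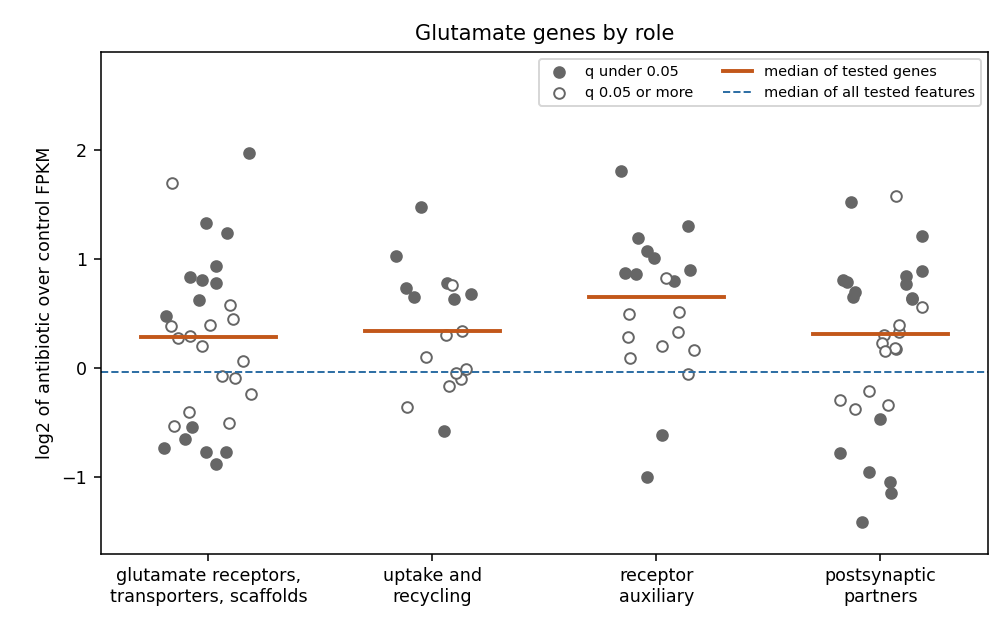
Log2 of antibiotic over control FPKM of tested genes (vertical axis) for the glutamate receptors, transporters and scaffolds and for 3 lists of partner genes. Filled points have q under 0.05, orange bars are the medians (0.28, 0.34, 0.66 and 0.32 from left to right) and the dashed line is the median of all tested features (-0.03).

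The composition of the tissue was read from 13 marker lists beside these changes, and its part in them was not tested. Calls in these lists, here and in the next paragraph, are read against all tested features. Of those 41.1% were called, 19.0% upwards and 22.2% downwards, and several lists lie near these shares. Of 10 tested hypothalamic markers 5 fell and 5 did not pass. With 2 untested markers included, that list summed to 345 FPKM in antibiotic and 872 in control. PMCH, at 18.6 FPKM in antibiotic and 282 in control, and OXT, at 96.8 and 310, weigh most in this difference. AVP, at 181 and 211, and HCRT, at 11.5 and 13.2, did not pass. POMC and AGRP, alone among the 10 tested, were higher in antibiotic but did not pass. Of 5 tested markers of midbrain and raphe 4 rose and 1 did not pass. With 2 untested markers included, their list summed to 46.4 FPKM in antibiotic and 1.97 in control. Of 9 tested markers of neurons in general 5 rose, 1 fell and 3 did not pass, with sums of 1626 FPKM in antibiotic and 1287 in control. The 4 markers of GABA neurons gave 2 rises, with sums of 185 and 116 FPKM. The thalamus list, which also holds the member SLC17A7, had 3 rises (LHX9, LEF1 and SLC17A7) among 6 tested genes, with sums of 71.3 and 64.6 FPKM. The cortex and hippocampus list, whose neurons use SLC17A7, summed to 3.27 FPKM in antibiotic and 7.89 in control, and its 2 tested markers did not pass. The cerebellar list summed to 148 and 143 FPKM with 1 fall among 4 tested genes, and the pituitary list to 0.527 and 0.958 with none tested; 1 marker of the cortical and 1 of the pituitary list were at 0 in control.

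Of glial and vascular lists, astrocyte markers summed to 7306 FPKM in antibiotic and 4009 in control with 3 rises and 1 fall among 6, oligodendrocyte markers to 11897 and 9627 with 2 rises and 1 fall among 7, and their precursors to 352 and 183 with 4 rises among 5. Microglial markers summed to 215 and 401 FPKM with 3 falls among 6, and endothelial markers to 161 and 86.4 with 3 rises among 4.

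Loci were shorter among the genes that rose, and similar between those that fell and those that did not pass. The median locus in the authors' deposited table was 53.8 kb among the 9 members that rose, 158 kb among the 6 that fell and 157 kb among the 15 that did not pass. Over all tested features the medians were 21.5 kb for those that rose, 33.6 kb for those that fell and 32.8 kb for those that did not pass. Among the 23 tested members with loci over 50000 bases 5 rose and 5 fell, beside 12.8% and 23.4% of all tested features of that size. Of the 7 tested members with shorter loci 4 rose and 1 fell, beside 22.3% and 21.5% of all tested features of that size. SLC17A6, at 39.7 kb, was the shortest that fell. The part of locus length in these changes was not tested.

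**Figure D5:**
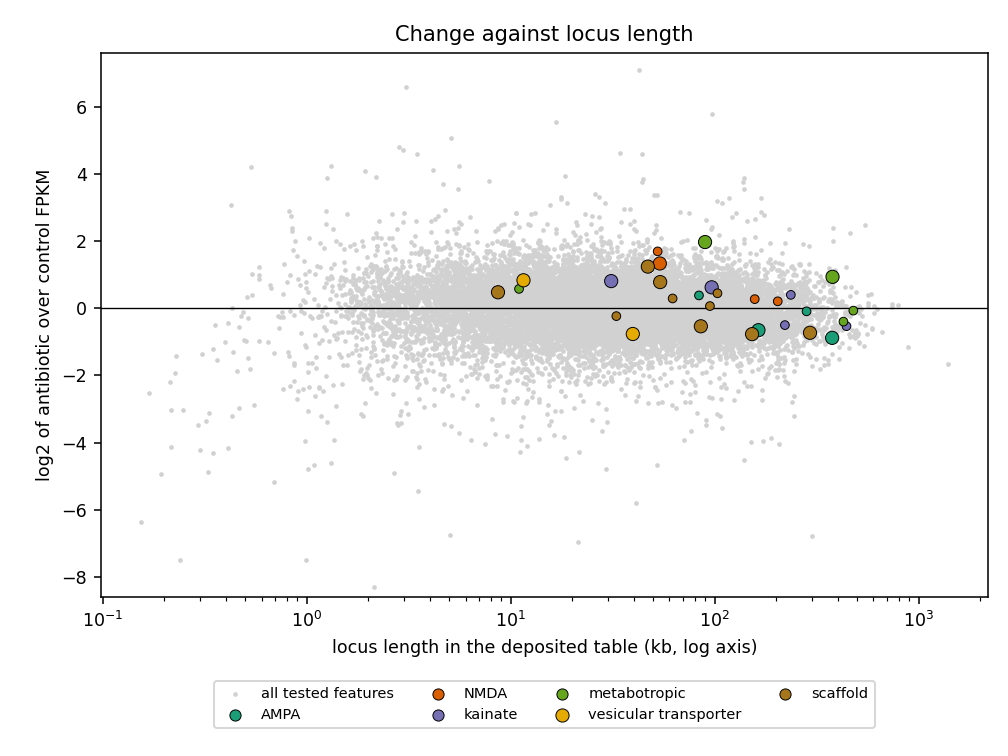
Log2 of antibiotic over control FPKM (vertical axis) against locus length in the deposited table (kb, log axis) for all tested features with a finite fold in grey and the 30 tested genes in colour by class. Larger coloured points have q under 0.05; those that rose have a median locus of 53.8 kb and those that fell 158 kb.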

How the data were processed

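The series has RNA-seq libraries of piglet hypothalamus, 3 antibiotic and 4 control, grouped by sample title. Per the labels' protocols, RNA was extracted with Trizol and libraries were built with an Illumina TruSeq kit. Bowtie 0.12.2 and the genome builds susScr3 and mm8 are named, without roles, in the submitters' processing notes. Aligner settings, annotation, strand and the pooling of libraries: not given in the sources used here.

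Per the file headers, the deposited table holds 1 FPKM value per gene and group, the log2 of antibiotic over control, and the authors' p-value and q-value. After 6 blank rows were left out it had 16991 features, 13352 of them tested, and the 2 other deposited sheets, which repeat called rows, were not used. The deposited log2 matched the ratio of the FPKM values within 0.01 for every member with both values above 0. The planned limma fit needs values per library and could not be run, so calls rest on the authors' q at 0.05. Depth per library is unknown and no interval was computed.

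Members, classes and lists were chosen with earlier results of these data known. The rule named every tested member and, of each of the 3 partner lists, the 3 genes with the smallest q, ties going to the larger absolute fold. Some genes that this rule names are counted but not reported here. Of the 34 members 29 have the same symbol by ID in the gene name table. The 13 marker lists are given as counts and sums, taking for a symbol with several rows the tested row with the highest FPKM. Genes named from those lists were picked after their values were seen. Shares, ratios, medians and 3 scalings, checked on simulated data, were computed in Python 3.11.15 with numpy 2.4.6 and pandas 2.3.3. No protein or promoter sequence was used here.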

Additional observations from a re-analysis of the deposited data

How the results depend on the processing

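Every one of the 15 called members kept its direction with 0.1 or 1 FPKM added to both groups and under upper quartile, trimmed mean and quantile scaling. Of the other 15, only DLGAP2 changed sign, to a log2 of -0.0068 under quantile normalization, and the cause was not tested. The median log2 of all tested features, -0.03 as deposited, was at most 0.03 under those scalings. With the authors' significant column, which also asks for a 2-fold change, 3 members rose (GRIN2D, GRM4 and SHANK1) and 0 fell. At q under 0.05 alone 9 rose and 6 fell, and at an unadjusted p under 0.05 11 were higher and 7 lower. Fewer genes can pass that column by construction. Counting only the smallest q of the table, chosen after seeing the data, left 3 that rose and 3 that fell. At a q under 0.01 there were 6 and 4. The median log2 of tested members, 0.28, was -0.091 among the 21 with at least 5 FPKM in a group. It was 0.40 among the 9 tested members under 5 FPKM in both groups, of which 8 had a log2 above 0 and 2 were called. For all tested features at that level the median log2 was 0.046, with 2115 of 4049 above 0. Without GRIN2D and GRIK4, whose loci are shared, also chosen after seeing the data, 8 rose and 6 fell. No paired analysis was possible because the deposited columns hold 1 value per group and carry no replicate number. For the same reason leaving out each library was not run, and what 1 library contributes to any value is unknown.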

Other observations

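Further genes were read from the rows that the KEGG column of the deposited table places in the glutamatergic synapse, signalling genes and transporters among them. This list was chosen after seeing the data and is incomplete, since 24 of the 34 members are not in it. Outside the members 20 such genes were tested, of which 8 rose, 2 fell and 10 did not pass. Over all tested features 41.1% were called, 19.0% upwards and 22.2% downwards. SLC38A3 and SLC1A6 were also counted under uptake and recycling above, and SLC38A3 is among those that rose. ADRBK1, a kinase that desensitises G protein-coupled receptors, stood at 65.2 FPKM in antibiotic and 27.1 in control, 2.41-fold higher (q = 0.000336 in the authors' deposited table). PLCB3 and ITPR3, which act on the calcium-release arm used by GRM5, stood at 7.78 and 2.18 FPKM in antibiotic, against 3.87 and 0.861 in control (q = 0.000336 and 0.000625). The 2 that fell were GNAI1, an inhibitory G protein subunit gene, at 26.8 FPKM in antibiotic and 56.7 in control (q = 0.000336 in that table), and the phospholipase gene PLA2G4A, at 5.07 and 7.98 (q = 0.0039). These genes were chosen after their values were seen.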
